A study of Homo sapiens with 9 samples.

Results

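The comparison described here set 6 libraries of differentiated Caco-2 cells exposed to a red food colorant against 3 libraries of cells kept in plain culture medium. Caco-2 is an established human colon carcinoma line whose cells polarise and form an absorptive, enterocyte-like sheet when left confluent. The 6 exposed libraries were the 3 samples given 10 µM carmine and the 3 samples given 20 µM carminic acid, so that all 9 libraries of the series entered the comparison. Every sample was labelled wild type and was collected at 24 h, and the control medium was described as regular medium with no vehicle named. Carminic acid is an anthraquinone glycoside from cochineal insects, and carmine is the lake that forms when it is complexed with aluminium. The labels do not say whether samples A, B and C of a group were grown as independent cultures. All p-values therefore measure the spread between these samples alone, and that spread may be technical. The question asked of the pooled group was which transcripts the colorant-exposed cells shared, relative to untreated cells.

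Planar aromatic molecules include the classical ligands of the aryl hydrocarbon receptor, a cytosolic transcription factor. On binding a ligand it moves to the nucleus, pairs with ARNT and binds DNA elements with the core GCGTG near genes of foreign-compound metabolism. CYP1A1, a cytochrome P450 that oxidises polycyclic aromatic compounds, is the best known of these genes and is inducible in the intestinal epithelium. Splicing factors with arginine- and serine-rich domains, a second group that recurs below, recognise exons and recruit the spliceosome. Many of them control their own transcripts through exons that lead to decay of the RNA.

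The libraries held 54871018 to 57581301 counts each over 28395 genes, and 16017 genes had enough counts to be tested. Levels are given in CPM, the depth-scaled count of a gene, here with TMM factors. The enterocyte markers were present: VIL1 at 1110 to 1350 CPM over the 9 libraries, CDX2 with 181 to 253, FABP1 with 180 to 237, SI with 225 to 319 and ALPI with 56.7 to 74.1. KRT20 stood at 0 in every library. Correlations of log2 CPM between libraries were 0.9875 to 0.9936 within the exposed or the control group, and 0.9882 to 0.993 between them. In a principal component analysis, the leading axis held 20.9% of the variance, and carmine library C lay on it at 34.5 and the other libraries at -19.4 to 14.5. On the second axis (16.5%) carmine A, B and C lay at -18.6, -23.5 and -9.6. The carminic acid libraries lay there at 6.77, 9.63 and -1.71, and the controls at 21.6, 11.7 and 3.78. The libraries also differed in how counts followed the GC content of transcripts. Across 12075 genes, Spearman's rho between GC content and a gene's deviation from its mean ran from -0.663 in control C to 0.697 in carminic acid B. It was 0.467 for the pooled log2 fold change. These are descriptions across genes that share the same libraries. Values with the GC and length trends removed are given below for genes at or near the threshold and wherever they moved a named gene or a list's median by over 1.5 times or changed its sign. That was so for 16 of 64 named genes, none with an absolute value above 0.189 either way, and for 11 of 32 medians.

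Only 3 of the 16017 genes passed an adjusted p of 0.05 in the pooled comparison, which is 0.0187% of those tested. CYP1A1 rose (0.00624% of genes were called higher), and LUC7L3, a splicing factor, and TBC1D3D, 1 of a set of near-identical gene copies, fell (0.0125% were called lower). At an unadjusted p under 0.05 there were 1399 genes (8.73%), 627 higher (3.91%) and 772 lower (4.82%). All 6 exposed libraries lay above all 3 control libraries for 393 genes (2.45%) and below them for 352 genes (2.20%). The typical difference was small: the median absolute log2 fold change was 0.0983, and 50.28% of genes had a positive one. Other tools were less strict: with DESeq2 34 genes passed (5 higher), and with limma-voom and quality weights 109 did (18 higher). Scaling by library size alone gave 1 higher and 5 lower genes in edgeR, against 1 higher and 2 lower with TMM factors. With the GC content and length trends removed, edgeR called 21 genes (0.131%), 2 higher and 19 lower, and all 3 genes above were among them. Without carmine library C the count was 5, with the same 3 genes among them.

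**Figure D1:**
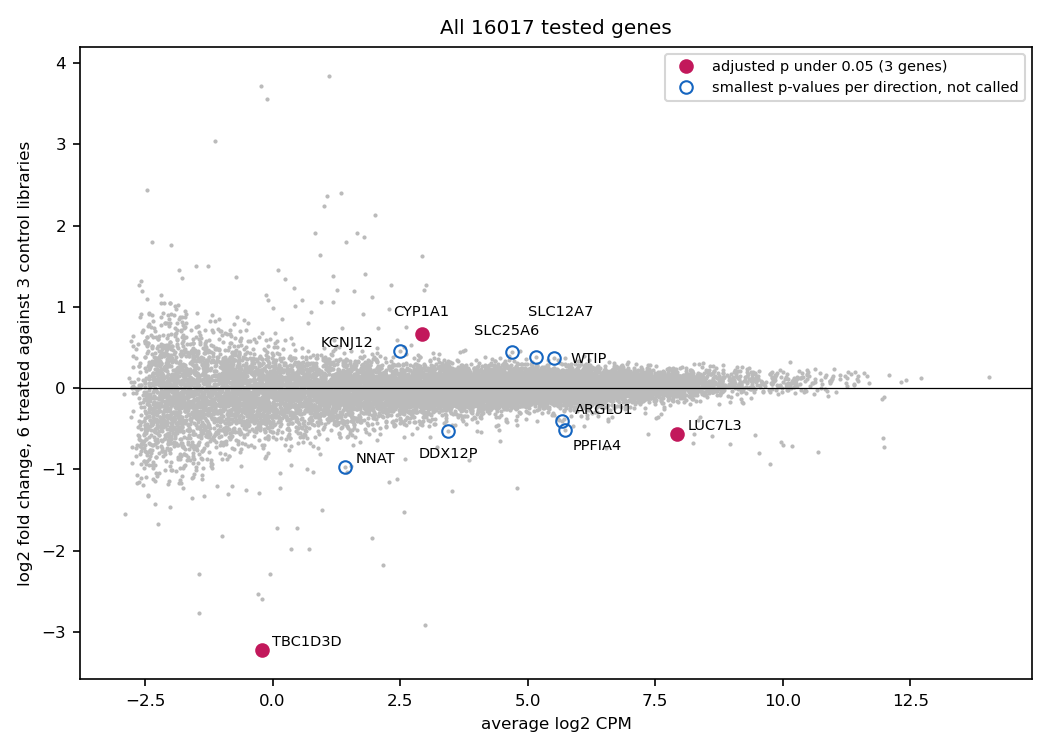
Log2 fold change of the 6 colorant-exposed against the 3 control libraries (vertical axis) against average log2 CPM (horizontal axis), 1 point per tested gene. Filled points are the 3 genes with an edgeR adjusted p under 0.05, open points the other genes with the smallest p-values in each direction, and most of the 16017 genes lie close to 0.

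CYP1A1 (Gene ID 1543; chr15:74719542-74725528, GRCh38.p14, minus strand) was the single gene called higher. It stood at 5.29, 5.74 and 5.396 CPM in controls A, B and C, at 7.13, 8.44 and 9.04 with carmine and at 9.34, 9.14 and 8.91 with carminic acid. Every exposed library lay above every control library, and the lowest exposed value was that of carmine A. The raw counts behind these levels were 295 to 325 in control and 415 to 533 in exposed libraries. The group means were 8.66 ± 0.812 CPM (SD, n = 6) and 5.47 ± 0.238 CPM (SD, n = 3), a 1.58-fold difference. The log2 fold change was 0.66 (SE 0.107; edgeR quasi-likelihood test, adjusted p = 0.0478), and 0.64 with the trends removed (adjusted p = 0.00868). The call lies close to the threshold: leaving out control A, B or C gave edgeR adjusted p-values of 0.451, 0.297 and 0.072, and leaving out carmine B or carminic acid A gave 0.0739 and 0.111. The mean of the colorant groups in a 3-group model gave 0.0519. In RNA from whole cultures, a change in the share of cells that carry a transcript and a change in its level per cell cannot be told apart, here and in all that follows.

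The promoter of CYP1A1 is shown to mark where the letters of the core GCGTG occur near its start. These letters alone do not make an element of the receptor. RefSeq's GRCh38.p14 table gives the 250 bases upstream of the start as chr15:74725529-74725778 on the minus strand. The letters GCGTG, searched on both strands with no other motif, occur once, 57 bases upstream of the start, and are set in capitals.

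CYP1A1: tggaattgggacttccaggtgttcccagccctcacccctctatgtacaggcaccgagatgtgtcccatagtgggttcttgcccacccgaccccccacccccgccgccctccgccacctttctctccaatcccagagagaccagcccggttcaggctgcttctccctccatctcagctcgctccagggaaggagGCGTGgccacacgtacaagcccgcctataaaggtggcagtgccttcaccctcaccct

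The same 5 letters occur in 32.2% of the 35116 promoter windows of this length in the table, and in 41.7% of the 17698 windows that belong to tested genes, so the match describes the window and is no evidence of binding. Windows of other genes in the receptor pathway, none of them called, held matches too: AHRR has windows with 1 and 2, TIPARP has windows with 2, 0 and 0, UGT1A6 with 1 and 0, and NQO1 with 0. The windows of LUC7L3 and ARGLU1 held 1 match each, and that of PNISR held 0.

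The other genes of the receptor pathway did not share the rise of CYP1A1. Of 18 listed genes 14 could be tested, and CYP1A1 alone was called. Log2 fold changes were positive for 5 and negative for 9, with a median of -0.04, beside 0.00 for all tested genes. AHR, the receptor itself, stood at 61.3 ± 11.8 CPM (SD, n = 6) in exposed and 69.9 ± 8.30 CPM (SD, n = 3) in control libraries, a log2 difference of -0.19 (edgeR adjusted p = 0.701; -0.12 with the trends removed). AHRR, the receptor's feedback repressor, stood at 0.717, 1.03 and 0.736 CPM in control, 0.361, 0.392 and 0.656 with carmine and 0.876, 0.339 and 0.652 with carminic acid. Its groups overlapped, and its log2 fold change of -0.60 did not pass (edgeR adjusted p = 0.583). TIPARP, an ADP-ribosyltransferase that dampens the receptor, had a value of -0.09 (95% interval -0.29 to 0.10; -0.03 with the trends removed). The conjugating enzyme UGT1A6 had -0.24 (-0.49 to 0.01) and the quinone reductase NQO1 0.04 (-0.11 to 0.20). CYP1B1 had 18 counts in all libraries together and was not tested.

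**Figure D2:**
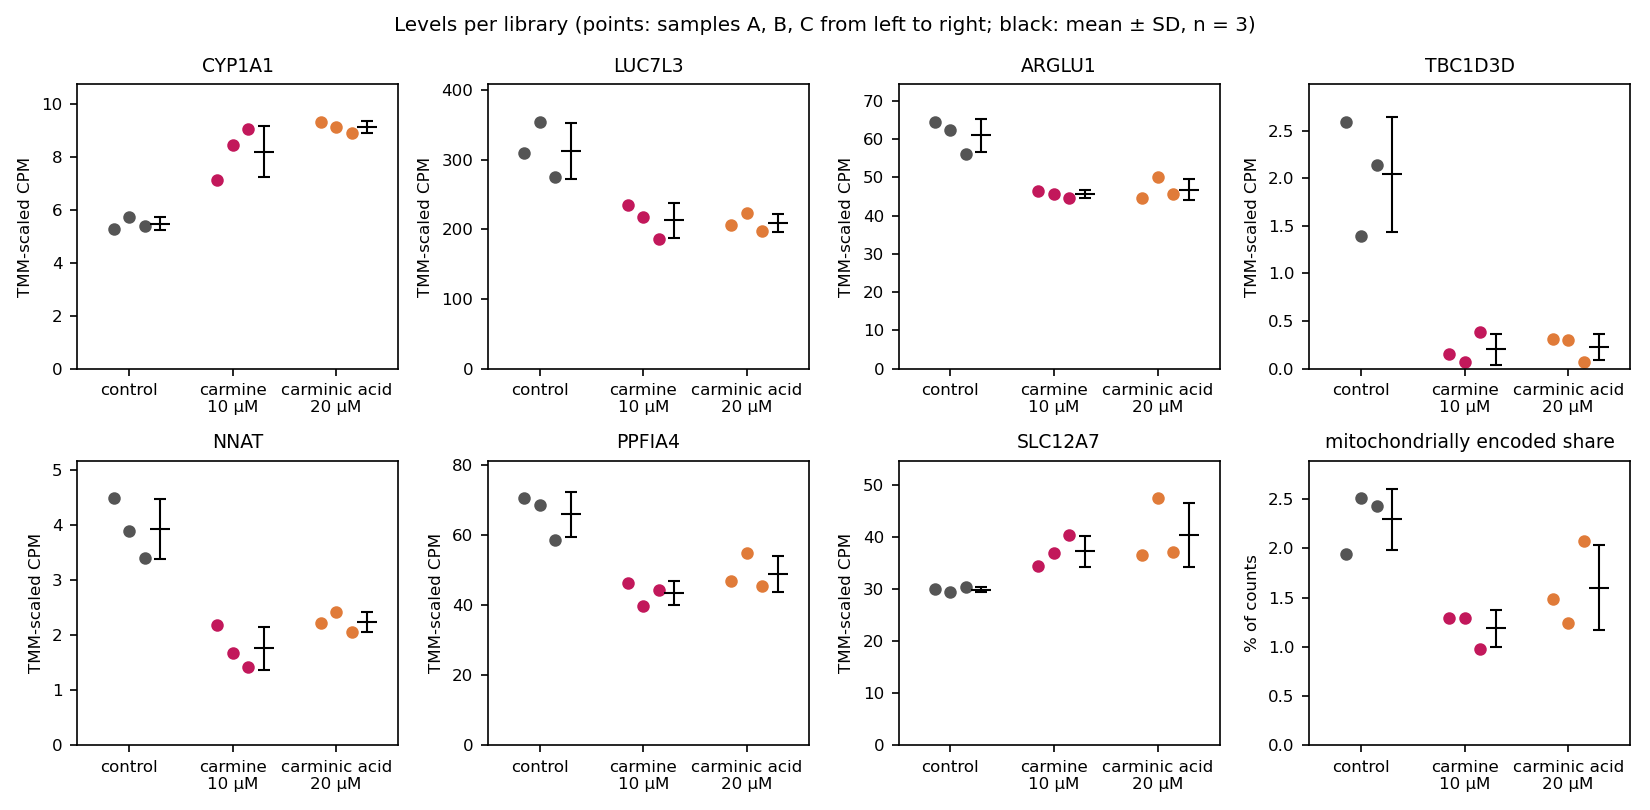
Level in each library of 7 genes (vertical axes, TMM-scaled CPM) and of the mitochondrially encoded share (percent of counts), by group on the horizontal axes, with points for samples A, B and C from left to right and black bars for mean ± SD (n = 3). CYP1A1 lies higher in both colorant groups than in control, and LUC7L3, ARGLU1, TBC1D3D, NNAT and PPFIA4 lie lower in both.

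LUC7L3 (Gene ID 51747; chr17:50719603-50756219), which encodes an arginine- and serine-rich relative of a yeast factor for 5′ splice site choice, fell in the exposed cells. It stood at 308.7, 354.5 and 274.3 CPM in controls A, B and C. The carmine libraries A, B and C had 234.7, 217.4 and 185.5 CPM, and the carminic acid libraries had 206, 223.3 and 197.3 CPM. The highest exposed library thus lay below the lowest control library. The log2 fold change was -0.57 (SE 0.0837; edgeR adjusted p = 0.0213), which is 0.674 of the control level, and -0.52 with the trends removed (adjusted p = 0.0153). Leaving out control A, control B or carminic acid A ended the call, with edgeR adjusted p-values of 0.169, 0.336 and 0.0623, and the mean of the colorant groups in a 3-group model gave 0.0519.

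LUC7L3 was the called member of the list of arginine- and serine-rich splicing genes, of which 37 of 39 were tested. Values were negative for 33 of them and positive for 4, and the median log2 fold change was -0.17. An unadjusted p under 0.05 was reached by 21 of the 37, all lower, where 4.82% of all tested genes were lower by that measure. The 6 exposed libraries lay below the 3 controls for 15 of the 37, and for 2.20% of all tested genes. DESeq2 called 5 members lower (LUC7L3, ARGLU1, PNISR, RBM39 and RBM25) and limma-voom called 9. The list's median deviation in log2 CPM from the mean of all libraries was 0.139, 0.118 and 0.101 in controls A, B and C. It was -0.00164, -0.0564 and -0.178 with carmine and -0.0275, -0.0645 and -0.0625 with carminic acid, so that every exposed library lay under every control. The median log2 fold change was -0.14 without carmine library C and -0.15 with the trends removed, with 31 members then negative.

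ARGLU1 (Gene ID 55082; chr13:106541673-106568137), a coactivator and splicing regulator rich in arginine and glutamate, came closest to the threshold after LUC7L3 in this list. Its levels were 64.6, 62.3 and 56.1 CPM in control, 46.6, 45.7 and 44.6 with carmine and 44.7, 50.01 and 45.8 with carminic acid. The groups did not overlap, and the log2 fold change was -0.40 (SE 0.0698; edgeR adjusted p = 0.0584). With the trends removed it was -0.33 (edgeR adjusted p = 0.107). Leaving out control C, carmine C or carminic acid B brought it past the threshold (edgeR adjusted p = 0.0434, 0.0482 and 0.0433). Leaving out control A, control B, carmine B or carminic acid A gave edgeR adjusted p-values of 0.451, 0.65, 0.12 and 0.131. The next members by p-value were chosen after their values were seen. PNISR, a nuclear-speckle protein that interacts with splicing factors, stood at 61.1 ± 6.17 CPM (SD, n = 6) against 84.3 ± 7.71 CPM (SD, n = 3), a log2 difference of -0.46 (edgeR adjusted p = 0.0813). RBM39, a U2AF65-like splicing factor, stood at 306 ± 19.4 against 391 ± 32.3 CPM, a difference of -0.36 (adjusted p = 0.122). RBM25 (-0.36), NKTR (-0.35) and the kinase CLK1 (-0.31), which phosphorylates SR proteins, were also lower in all 6 exposed libraries and did not pass in edgeR. The classical SR proteins differed less, with -0.16 for SRSF1 and -0.19 for SRSF2, both without overlap. U2AF1 had the list's only large positive value (1.06), at 2.69 ± 3.62 CPM in exposed libraries, and is uncertain because a near-identical copy can share its reads.

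**Figure D3:**
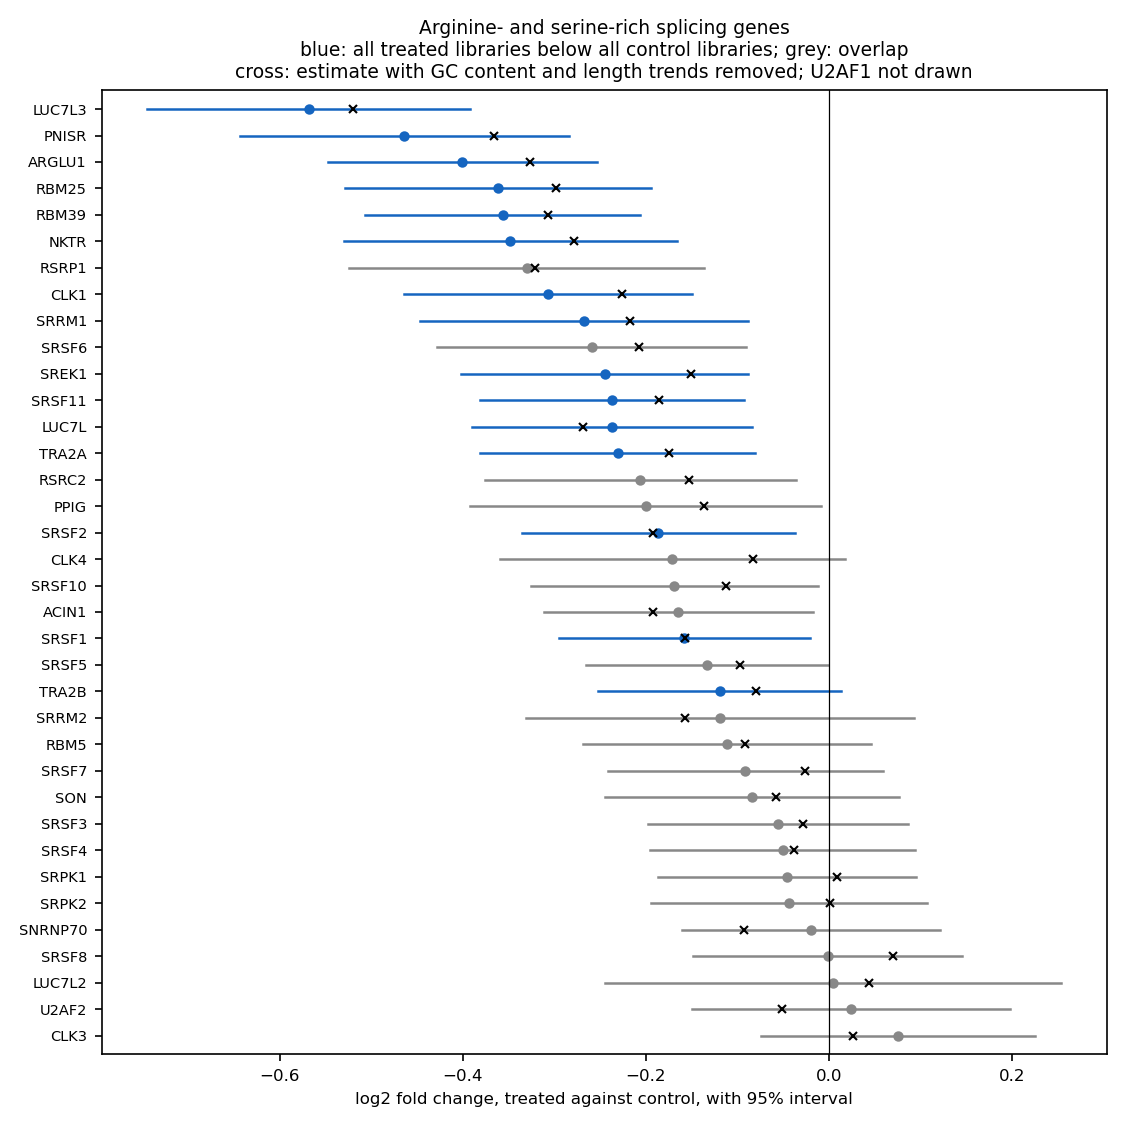
Log2 fold change of exposed against control libraries (horizontal axis) with its 95% interval for 36 of the 37 tested splicing genes, and a cross for the estimate with GC content and length trends removed. Blue marks the 15 genes whose 6 exposed libraries all lay below the 3 controls, and LUC7L3, at -0.57, has the lowest value. U2AF1, given in the text, has a larger value in the other direction.

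TBC1D3D (Gene ID 101060389; chr17:38002322-38014908) had the smallest p of all genes. Its raw counts were 145, 79 and 122 in control, 9, 4 and 21 with carmine and 18, 17 and 4 with carminic acid. The log2 fold change was -3.23 (SE 0.363; edgeR adjusted p = 0.00173), from 2.04 ± 0.607 CPM (SD, n = 3) to 0.217 ± 0.135 CPM (SD, n = 6). It is 1 of 15 TBC1D3 copies in the files, a primate family related to Rab GTPase-activating proteins whose members are nearly identical, and the deposited counts cannot show how reads were divided among them. The neighbouring copy TBC1D3L had 3.46, 2.83 and 1.44 CPM in control, 1.68, 1.62 and 2.79 with carmine and 2.36, 3.20 and 2.43 with carminic acid, with overlap. Summed over the 15 copies, the family stood at 4.50 ± 0.921 CPM (SD, n = 6) against 6.24 ± 1.67 CPM (SD, n = 3). With the copies added up before the fit, a choice made after seeing the data, the log2 fold change was -0.47 (SE 0.175) and edgeR's adjusted p was 0.549. The call therefore belongs to the count of 1 copy and not to the family.

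The next 3 genes lay near the threshold on the lower side. NNAT (Gene ID 4826; chr20:37521250-37523690), the imprinted gene of neuronatin, a small membrane protein of the endoplasmic reticulum, had 4.50, 3.90 and 3.40 CPM in control. It had 2.18, 1.67 and 1.42 CPM with carmine and 2.23, 2.43 and 2.06 CPM with carminic acid, with no overlap. Its log2 fold change was -0.98 (SE 0.166; edgeR adjusted p = 0.0584), and -1.03 with the trends removed (adjusted p = 0.0164). PPFIA4 (Gene ID 8497; chr1:203026491-203078736), a liprin scaffold protein, had 70.6, 68.7 and 58.5 CPM in control. It had 46.3, 39.8 and 44.4 CPM with carmine and 46.8, 54.9 and 45.3 CPM with carminic acid, again with no overlap. Its value was -0.51 (SE 0.0892; edgeR adjusted p = 0.0584), and -0.55 with the trends removed (adjusted p = 0.00112). DDX12P (Gene ID 440081), a pseudogene of a DNA helicase whose reads can be shared with its relatives, stood at 9.42 ± 1.04 CPM (SD, n = 6) against 13.6 ± 0.489 CPM (SD, n = 3). Its value was -0.53 (edgeR adjusted p = 0.0813), and -0.56 with the trends removed (adjusted p = 0.00583). In edgeR all 3 genes passed without carminic acid B (adjusted p = 0.0334, 0.0234 and 0.0257). NNAT and PPFIA4 also passed in edgeR without control C (0.0434 and 0.0341), and NNAT without carmine C (0.0482). Leaving out control A gave edgeR adjusted p-values of 0.451 for all 3 genes. Leaving out control B gave 0.359, 0.634 and 0.65. With all 9 libraries DESeq2 called all 3 genes (adjusted p = 0.000121, 0.000266 and 0.000559), as did limma-voom (0.00223, 0.00193 and 0.00318).

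On the higher side the genes after CYP1A1 were further from the threshold in edgeR. SLC12A7, a potassium-chloride cotransporter that acts in cell volume control, had 30.0, 29.4 and 30.5 CPM in control. It had 34.5, 37.1 and 40.5 CPM with carmine and 36.6, 47.6 and 37.3 CPM with carminic acid, with no overlap and a log2 fold change of 0.38 (SE 0.0921; edgeR adjusted p = 0.310). The control libraries lay within a narrow band and the exposed ones were spread more widely. SLC25A6, a mitochondrial ADP/ATP carrier whose gene lies in the region that the X and Y chromosomes share, stood at 28.3 ± 3.81 against 20.7 ± 2.42 CPM (0.45; adjusted p = 0.310). The count of SLC25A6 is uncertain because reads from that region can match both chromosomes. WTIP, a LIM-domain protein, stood at 49.3 ± 6.33 against 38.3 ± 1.63 CPM (0.37; adjusted p = 0.354). KCNJ12, an inward-rectifier potassium channel, stood at 6.17 ± 0.694 against 4.49 ± 0.348 CPM (0.46; adjusted p = 0.354). None of these 3 overlapped between groups. Their adjusted p-values are from edgeR, with n = 6 and n = 3. DESeq2 and limma-voom called SLC12A7 (adjusted p = 0.0375 and 0.0203) and SLC25A6 (0.0479 and 0.0153). WTIP was called by limma-voom (adjusted p = 0.0257) and not by DESeq2 (0.0729), and KCNJ12 by neither (0.0758 with DESeq2 and 0.0604 with limma-voom).

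The mitochondrial genome encodes 13 respiratory chain and ATP synthase proteins and 2 rRNAs, and its transcripts took a smaller share of counts in the exposed libraries. The share was 1.94, 2.51 and 2.43% in controls A, B and C, 1.29, 1.30 and 0.973% with carmine and 1.49, 1.24 and 2.08% with carminic acid. Carminic acid C lay above control A, so that the groups overlapped. The means were 1.39% ± 0.375 (SD, n = 6) and 2.30% ± 0.308 (SD, n = 3), and an exact two-sided permutation test of the difference of -0.902 percentage points gave p = 0.0476 (the smallest that 84 groupings can give is 0.0238). The p rose to 0.0714 or 0.143 without any 1 of the controls, where 0.0714 is the smallest possible, and to 0.0714 without any carmine library or without carminic acid A or B. Without carminic acid C it was 0.0357, the smallest possible there (exact test).

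By gene, the sign was negative for all 15 mitochondrial transcripts (median log2 fold change -0.68), and none was called in edgeR, DESeq2 or limma-voom with all 9 libraries. In edgeR, 12 had an unadjusted p under 0.05, all lower, where 4.82% of all tested genes were lower by that measure. COX1, a core subunit of cytochrome c oxidase, had 5049, 6099 and 5476 CPM in control, 3227, 3098 and 2395 with carmine and 3453, 3044 and 4851 with carminic acid. ATP8, an ATP synthase subunit whose gene overlaps ATP6, ran from 56.2 to 102 CPM in exposed and from 104 to 142 CPM in control libraries (-0.73; edgeR adjusted p = 0.354). Without carminic acid C edgeR called ATP8 (-0.84; adjusted p = 0.00431). Its edgeR adjusted p was 0.451 without control A and 0.867 without control B. COX1 and ATP8 were the only 2 members without overlap, where 2.20% of all tested genes lay below control in every exposed library. ND6, the only protein gene on the light strand, differed less (-0.38), as did ND3 (-0.39), and their 95% intervals included 0. The medians were -0.92 for carmine and -0.48 for carminic acid, each against the same 3 controls, and -0.65 with the trends removed.

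Nuclear genes for subunits of the respiratory chain and ATP synthase did not share that direction. Of 47 tested, 39 had positive values, with a median of 0.11. None was called in edgeR, DESeq2 or limma-voom, and 4 had an unadjusted edgeR p under 0.05, all higher, where 3.91% of all genes were. UQCRC1, a core protein of complex III, had 290, 287 and 284 CPM in control, 305, 325 and 478 with carmine and 306, 357 and 344 with carminic acid. NDUFB10, a complex I subunit, stood at 77.3 ± 9.14 against 65.9 ± 3.38 CPM (0.23; edgeR adjusted p = 0.549). The groups did not overlap for these 2 genes, and carmine C had the highest level of each. Without carmine C the list's median was 0.06. Factors of mitochondrial transcription and RNA processing showed no common direction, with 13 of 28 positive, a median of -0.01 (0.03 with the trends removed) and MTERF2, a mitochondrial termination factor relative, at -0.23 (edgeR adjusted p = 0.549).

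Cytosolic ribosomal protein genes had small positive values: 49 of 52 were positive, with a median of 0.12 (0.08 without carmine C). None was called by any of the 3 tools, and 6 had an unadjusted edgeR p under 0.05, all higher, beside 3.91% higher of all tested genes. RPS28 stood at 404 ± 50.4 CPM (SD, n = 6) against 335 ± 32.9 CPM (SD, n = 3), with overlap (0.27; edgeR adjusted p = 0.547). RPL10, the only member without overlap, had 1302, 1327 and 1287 CPM in control and 1382 to 1648 CPM in exposed libraries. Carmine C was again the highest.

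**Figure D4:**
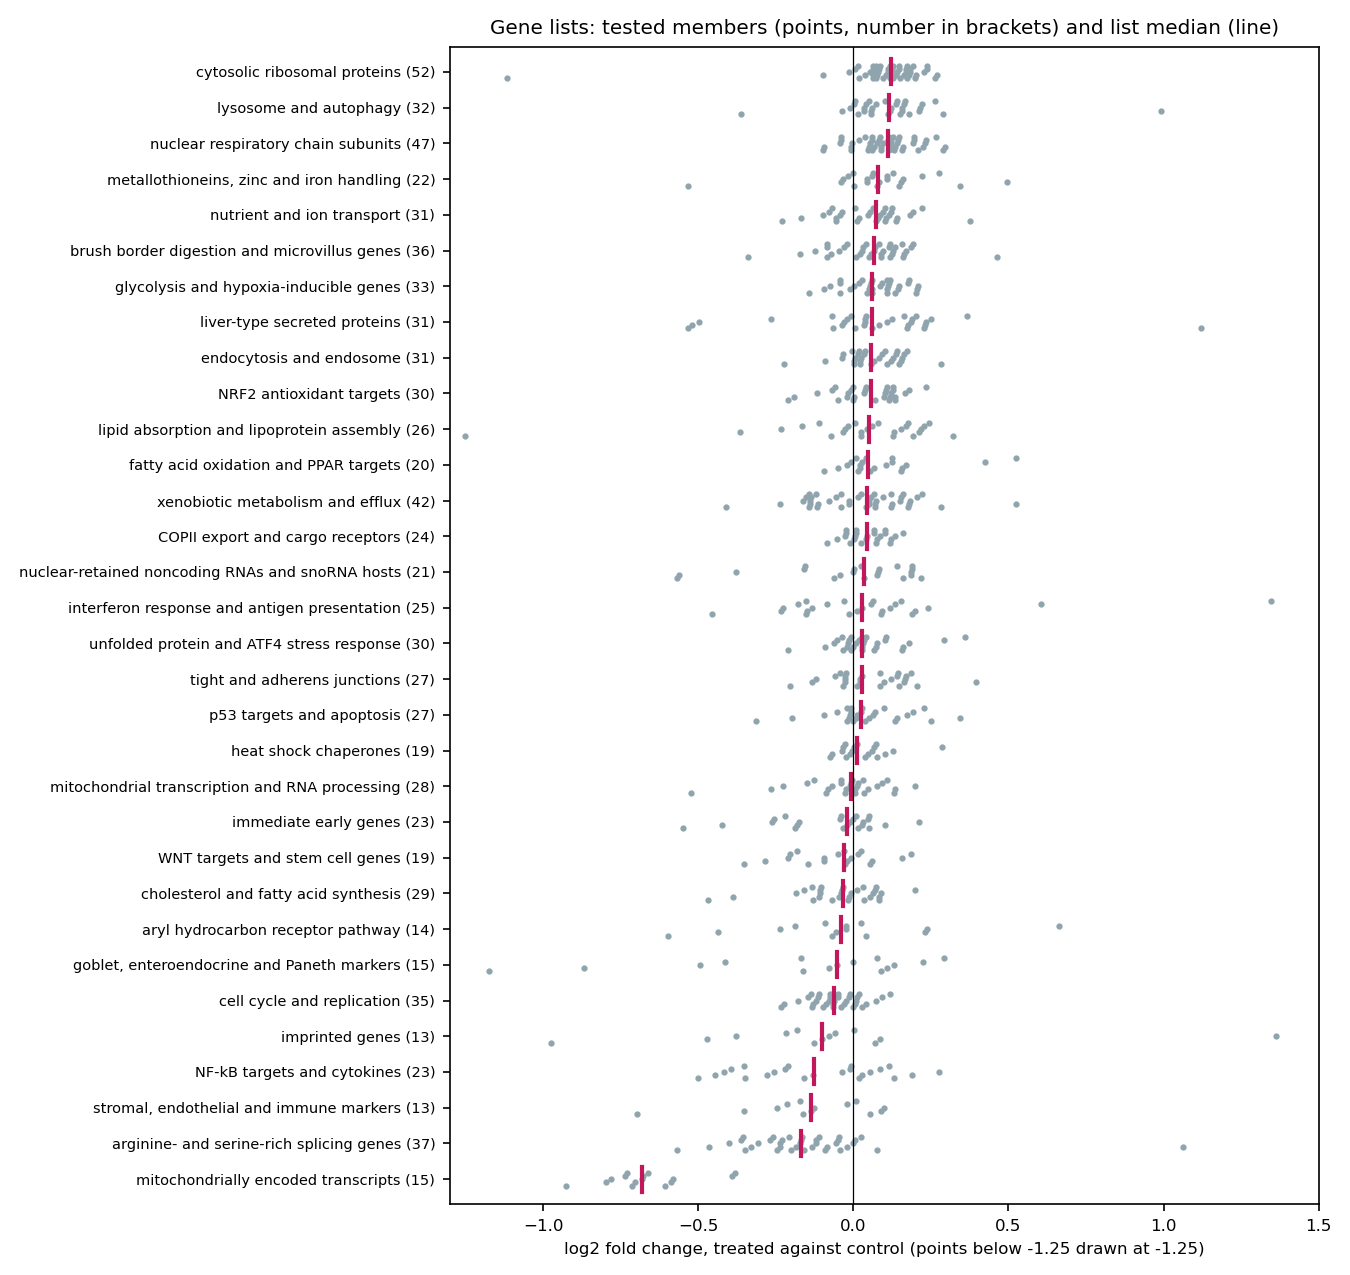
Log2 fold change of exposed against control libraries (horizontal axis) for the tested members of 32 gene lists (1 point per gene, number in brackets) with the list median as a line. The mitochondrially encoded transcripts (median -0.68) and the splicing genes (-0.17) have the lowest medians, and the ribosomal, lysosomal and nuclear respiratory chain lists, near 0.12, the highest.

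Among genes of lysosomes and autophagy, 29 of 32 had positive values, and the median was 0.12. None was called by edgeR, DESeq2 or limma-voom, 10 of 32 had an unadjusted edgeR p under 0.05, all higher, and 5 had no overlap. Of all tested genes 3.91% were higher at that p, and 2.45% lay above control in every exposed library. Among them CTSH, a lysosomal cysteine protease, had 149, 150 and 143 CPM in control, 159, 169 and 239 with carmine and 161, 178 and 175 with carminic acid (0.29; edgeR adjusted p = 0.549). Its value fell to 0.19 without carmine C. TFEB, the transcription factor that drives lysosomal genes, stood at 21.8 ± 2.21 against 18.1 ± 1.75 CPM (0.26; edgeR adjusted p = 0.549). LAMP1, the membrane glycoprotein of lysosomes, stood at 496 ± 24.0 against 444 ± 17.9 CPM (0.16; edgeR adjusted p = 0.549), and HEXA, a lysosomal hexosaminidase, at 215 ± 12.7 against 194 ± 2.04 CPM (0.15). The list's median was 0.09 without carmine C and 0.10 with the trends removed. Endocytosis genes were positive in 26 of 31 cases with a smaller median of 0.06, none was called by any tool, and EHD1, a recycling-endosome ATPase, had 0.17 (edgeR adjusted p = 0.549; 0.10 with the trends removed).

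Differentiated Caco-2 cells also make several liver-type secreted proteins, and the values of some lay modestly above control. Of 31 tested, 21 were positive with a median of 0.06. None was called by edgeR, DESeq2 or limma-voom. At an unadjusted edgeR p under 0.05 there were 9 higher and 1 lower, and 4 higher genes had no overlap. The shares over all tested genes were 3.91% higher, 4.82% lower and 2.45% above control without overlap. SERPINA1, alpha-1-antitrypsin, had 832, 818 and 769 CPM in control, 890, 947 and 943 with carmine and 881, 946 and 965 with carminic acid (0.20; edgeR adjusted p = 0.504). VTN, vitronectin, stood at 1675 ± 158 against 1425 ± 87.8 CPM (0.23; edgeR adjusted p = 0.541), and FGA, the fibrinogen alpha chain, at 154 ± 7.04 against 137 ± 1.96 CPM (0.18). HP, haptoglobin, was low, at 4.95 ± 0.622 against 3.84 ± 0.245 CPM (0.37). These 4 genes were above every control in all 6 exposed libraries.

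Genes of the absorptive surface differed little. Of 36 brush border and microvillus genes, 26 were positive with a median of 0.07 (0.04 with the trends removed), and none was called by any of the 3 tools. MEP1A, a subunit of the brush border protease meprin, stood at 286 ± 11.9 against 254 ± 6.35 CPM with no overlap (0.17; edgeR adjusted p = 0.549). The 95% intervals of the differentiation markers were narrow and included 0: -0.23 to 0.14 for SI, sucrase-isomaltase, -0.06 to 0.29 for ALPI, the intestinal alkaline phosphatase, and -0.09 to 0.22 for VIL1, villin. Their estimates were -0.05, 0.12 and 0.07, and 0.03, 0.05 and 0.02 with the trends removed, so that the sign for SI changed. LCT, lactase, had 21.3, 17.97 and 16.7 CPM in control, 19.6, 17.9 and 17.7 with carmine and 24.2, 23.7 and 24.2 with carminic acid. Its pooled value was 0.18 (edgeR adjusted p = 0.656), with the carminic acid libraries above the others. Of 31 nutrient and ion transport genes, 22 were positive (median 0.07), 4 were higher and 1 lower at an unadjusted edgeR p under 0.05 (3.91% and 4.82% of all tested genes), and none was called in edgeR. DESeq2 and limma-voom each called SLC12A7.

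Lipid absorption and lipoprotein genes had a median of 0.05, with 7 of 26 higher and 2 lower at an unadjusted edgeR p under 0.05 (3.91% and 4.82% of all tested genes) and none called in edgeR. LPIN3, a phosphatidate phosphatase of triglyceride synthesis, had 214, 236 and 195 CPM in control, 166, 138 and 168 with carmine and 168, 189 and 171 with carminic acid. It was lower in all 6 exposed libraries, with a value of -0.37 (SE 0.0845; edgeR adjusted p = 0.250). DESeq2 and limma-voom called it, and so did edgeR with the trends removed (-0.42; adjusted p = 0.0153). Cholesterol and fatty acid synthesis genes had a median of -0.03 (-0.02 with the trends removed) with 18 of 29 negative, and FADS1, a fatty acid desaturase, had -0.19 (edgeR adjusted p = 0.567). HMGCS1, of cholesterol synthesis, had -0.10 (95% interval -0.28 to 0.08; -0.05 with the trends removed). Fatty acid oxidation genes were positive in 16 of 20 cases (median 0.05), and ANGPTL4, a PPAR target that inhibits lipoprotein lipase, had 0.52 with overlap (edgeR adjusted p = 0.549). No member of the last 2 lists was called by edgeR, DESeq2 or limma-voom.

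Glycolysis and hypoxia-inducible genes had 26 of 33 positive values and a median of 0.06. CA9, a hypoxia-induced carbonic anhydrase, had 0.11 (95% interval -0.07 to 0.29; 0.04 with the trends removed). Tight and adherens junction genes had a median of 0.03 (0.05 with the trends removed), with CDH4, R-cadherin, at 26.8 ± 2.98 against 20.4 ± 3.18 CPM (0.39; edgeR adjusted p = 0.414). No member of these lists was called by edgeR, DESeq2 or limma-voom, and at an unadjusted edgeR p under 0.05 there were 5 higher and 1 lower glycolysis genes and 3 higher junction genes, beside 3.91% higher and 4.82% lower of all tested genes.

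Because carmine carries a metal, genes of metal handling are of interest. The pooled values also hold carminic acid, which is not the aluminium lake, and so do not describe carmine alone. Metallothioneins, small proteins that bind zinc and copper and are induced through MTF1, were expressed at low levels. MT1X had 0.412 to 0.512 CPM in control and 0.471 to 0.891 CPM in exposed libraries, and MT2A had 0.394 to 0.530 and 0.401 to 0.790 CPM. Their log2 fold changes of 0.35 and 0.28 did not pass (edgeR adjusted p = 0.709 and 0.780). At 22 to 50 counts per library the 95% intervals were wide, -0.23 to 0.92 and -0.33 to 0.88. MT1F was expressed more than MT1X and MT2A, at 3.14 ± 0.441 CPM (SD, n = 6) against 2.82 ± 0.473 CPM (SD, n = 3), with overlap. The log2 fold change of MT1F was 0.15 (95% interval -0.17 to 0.48, edgeR adjusted p = 0.773). The zinc exporter gene SLC30A1, an MTF1 target with ample counts, had 0.08 (-0.07 to 0.23; 0.19 with the trends removed). SLC30A2, a vesicular zinc transporter, stood at 2.19 ± 0.276 against 1.55 ± 0.121 CPM with no overlap (0.50; edgeR adjusted p = 0.533). Of the iron genes, TFRC, the transferrin receptor, stood at -0.04 (-0.18 to 0.10; 0.02 with the trends removed), SLC11A2, the iron importer DMT1, at 0.04 (-0.10 to 0.18), and FTH1, ferritin heavy chain, at 0.11 (-0.02 to 0.24). HEPH, the ferroxidase of iron export, had 589 ± 16.1 CPM (SD, n = 6) in the exposed libraries and 532 ± 3.96 CPM (SD, n = 3) in control. All exposed libraries lay above control (0.15; edgeR adjusted p = 0.549). The mitochondrial iron importer SLC25A37, which the list does not hold and which was chosen after its values were seen, lay below control in all exposed libraries (-0.36; edgeR adjusted p = 0.203). DESeq2 and limma-voom called it (adjusted p = 0.00625 and 0.0153). Over the 22 tested genes of the list the median was 0.08, 18 were positive and none was called by any of the 3 tools. Against the same controls, carmine and carminic acid had 0.48 and 0.19 for MT1X, and 0.45 and 0.08 for MT2A. They had 0.23 and 0.08 for MT1F, and 0.61 and 0.37 for SLC30A2. For SLC30A1 (0.05 and 0.10) and HEPH (0.14 and 0.16) the carmine value was the smaller. No gene was called for either colorant in the 3-group model.

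Of 30 NRF2 antioxidant targets 20 were positive with a median of 0.06, and none was called by edgeR, DESeq2 or limma-voom. HMOX1, heme oxygenase, had 64.2, 65.2 and 63.1 CPM in control, 69.3, 71.2 and 84.5 with carmine and 70.2, 76.7 and 80.8 with carminic acid. The groups did not overlap, and the value of 0.23 did not pass (SE 0.0759; edgeR adjusted p = 0.537). SRXN1, sulfiredoxin, had 0.13 (95% interval -0.03 to 0.30), TXNRD1, thioredoxin reductase, -0.05 (-0.18 to 0.08; -0.03 with the trends removed) and GCLM, of glutathione synthesis, 0.00 (-0.20 to 0.20; 0.05 with the trends removed). Of 42 genes of xenobiotic metabolism and efflux 24 were positive (median 0.04), and EPHX1, microsomal epoxide hydrolase, had 0.22 (edgeR adjusted p = 0.541). The efflux pumps ABCB1 (-0.08; -0.23 to 0.07) and ABCG2 (-0.14; -0.37 to 0.09) did not pass either, and stood at -0.03 and -0.09 with the trends removed. UGT2B7, a glucuronosyltransferase, stood at 86.3 ± 8.23 against 74.8 ± 1.14 CPM with no overlap (0.21; edgeR adjusted p = 0.549), and was called with the trends removed (0.28). It was the only member of its list called by any tool.

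No member of the lists of stress and cell cycle genes was called in edgeR, DESeq2 or limma-voom. Outside these lists, and chosen after their values were seen, DESeq2 and limma-voom called HSF4, a heat shock transcription factor (DESeq2 -0.44; adjusted p = 0.0417 and 0.0308), and CLSPN, claspin of the replication checkpoint (DESeq2 -0.42; adjusted p = 0.0219 and 0.0197), both lower. CDKN1A, the p53-induced inhibitor of cyclin-dependent kinases, had 103, 97.4 and 97.1 CPM in control, 110, 112 and 142 with carmine and 112, 119 and 113 with carminic acid. The groups did not overlap (0.25; SE 0.0803; edgeR adjusted p = 0.533), and the value was 0.19 without carmine C. The p53 and apoptosis list as a whole had a median of 0.03 (0.05 with the trends removed) with 17 of 27 positive. The unfolded protein and ATF4 list had a median of 0.03, with the chaperone HSPA5 at 0.02 (95% interval -0.11 to 0.15; 0.07 with the trends removed) and the transcription factor DDIT3 at 0.03 (-0.16 to 0.22; 0.015 with the trends removed). SESN2, a stress-induced regulator of mTORC1, had 0.16 with no overlap (edgeR adjusted p = 0.564). Heat shock chaperones had a median of 0.01 (0.03 with the trends removed), with CRYAB, a small chaperone, at 0.29 (edgeR adjusted p = 0.565). Cell cycle genes were negative in 26 of 35 cases (median -0.06, and -0.04 with the trends removed), with the replication helicase subunit MCM4 at -0.22 (edgeR adjusted p = 0.549).

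Immediate early genes had 6 of 23 lower at an unadjusted edgeR p under 0.05 and none higher, beside 4.82% lower and 3.91% higher of all tested genes. EGR1, a growth-factor-induced transcription factor, had 19.5, 17.7 and 18.6 CPM in control, 16.1, 14.1 and 13.2 with carmine and 18.2, 15.2 and 16.6 with carminic acid, with overlap (-0.25; edgeR adjusted p = 0.549). The list's median was -0.02. NF-kB targets and cytokines had a median of -0.13 (-0.04 with the trends removed) with 15 of 23 negative. CXCL8, the neutrophil chemokine interleukin-8, stood at 1.23 ± 0.455 against 1.57 ± 0.455 CPM (-0.35; edgeR adjusted p = 0.710). Its value against control was -0.05 with carmine and -0.74 with carminic acid. PTGS2, inducible cyclooxygenase, had -0.35 (edgeR adjusted p = 0.549). Interferon and antigen presentation genes had a median of 0.03 (0.01 with the trends removed), with STAT2 at -0.18 (edgeR adjusted p = 0.565). WNT targets and stem cell genes were negative in 13 of 19 cases (median -0.03, and -0.05 with the trends removed), with the receptor gene TNFRSF19 at -0.29 (edgeR adjusted p = 0.533).

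Nuclear-retained RNAs and snoRNA hosts had no common direction, with 13 of 21 positive and a median of 0.04 (0.08 with the trends removed). NEAT1, the scaffold of paraspeckles, had 461, 402 and 307 CPM in control, 323, 244 and 245 with carmine and 252, 299 and 216 with carminic acid. Carmine A lay above control C, and the value of -0.57 did not pass in edgeR (SE 0.136; adjusted p = 0.354), while DESeq2 called it (adjusted p = 0.00897), as did edgeR without control C (-0.71; adjusted p = 0.0371). Without control A NEAT1 had -0.44 (edgeR adjusted p = 0.704), and without control B -0.55 (edgeR adjusted p = 0.867). The 24 tested COPII export genes of the list had a median of 0.04 and no call by any tool, with the coat protein SEC13 at 0.16 (edgeR adjusted p = 0.591). The list does not hold the coat protein gene SEC31B, chosen after its values were seen, which was lower and called by DESeq2 (-0.60; adjusted p = 0.00106), by limma-voom (-0.58; adjusted p = 0.00325) and by edgeR with the trends removed (-0.61; adjusted p = 0.016). Apart from NNAT, the 13 tested imprinted genes included no call by any tool, and their median was -0.10.

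The summed levels of markers of other cell types overlapped between groups. Goblet, enteroendocrine and Paneth markers (30 genes, 3 at 0 in every library) summed to 822 to 920 CPM in exposed and 815 to 890 CPM in control libraries. MUC13, which absorptive cells also express, held the largest part. Several other members of this list were well expressed, each with overlap. AGR2 stood at 190 ± 25.4 CPM (SD, n = 6) against 212 ± 27.0 CPM (SD, n = 3), and ZG16 at 102 ± 10.5 against 92.8 ± 6.49. PLA2G2A stood at 50.3 ± 10.4 against 53.2 ± 4.61, MUC17 at 21.2 ± 2.21 against 23.8 ± 5.92 and TFF3 at 17.6 ± 4.23 against 15.1 ± 3.37. MUC2 and CHGA, which define goblet and enteroendocrine cells, had at most 0.0357 CPM. Of 15 tested members 9 were negative (median -0.05). Stromal, endothelial and immune markers (23 genes, 3 at 0) summed to 492 to 547 and 476 to 541 CPM, with CD68 the largest. COL1A1, a collagen chain, ran from 93.6 to 146 CPM over the 9 libraries and was at 112 ± 13.2 against 126 ± 21.4 CPM, while PTPRC, DCN and COL1A2 had at most 0.0547 CPM. Of 13 tested members 9 were negative, with a median of -0.14, and PDGFRA, a growth factor receptor, was at 11.3 ± 1.91 against 14.4 ± 2.51 CPM with overlap (-0.35; edgeR adjusted p = 0.549). The part of such cells in the results above was not tested. Of these lists TPH1, the serotonin-synthesis enzyme of enteroendocrine cells, had the smallest p of the first, at 0.145 ± 0.0287 against 0.331 ± 0.130 CPM (edgeR adjusted p = 0.519). LUM, the matrix protein lumican, had that of the second, at 0.9501 ± 0.182 against 1.54 ± 0.261 CPM (-0.70; edgeR adjusted p = 0.448). Neither overlapped, and limma-voom called LUM.

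The pooled test gives both colorants a common mean, so their own values are set side by side; they share the 3 controls, and the concentrations, 10 and 20 µM, differ. In a model with 3 groups edgeR called 0 genes for carmine and 0 for carminic acid against control, with 1760 and 1030 genes at an unadjusted p under 0.05. CYP1A1 had 0.58 with carmine and 0.74 with carminic acid, LUC7L3 -0.56 and -0.58, TBC1D3D -3.33 and -3.13, and ARGLU1 -0.42 and -0.38. NNAT had -1.16 and -0.81, and PPFIA4 -0.60 and -0.43. Between the colorants edgeR called 1 gene (0.00624% of those tested), CNIH1. At an unadjusted edgeR p under 0.05, 905 genes were higher and 521 lower with carmine than with carminic acid, 1426 in all. The pooled comparison had 1399 genes at that p. The 6 exposed libraries were treated as a group, and a single called gene does not show that they are otherwise uniform. For the 3 genes called in the pooled comparison the carmine minus carminic acid differences had 95% intervals of -0.39 to 0.08 for CYP1A1, -0.19 to 0.24 for LUC7L3 and -1.44 to 1.05 for TBC1D3D. These intervals include 0 and do not show that the colorants act alike.

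**Figure D5:**
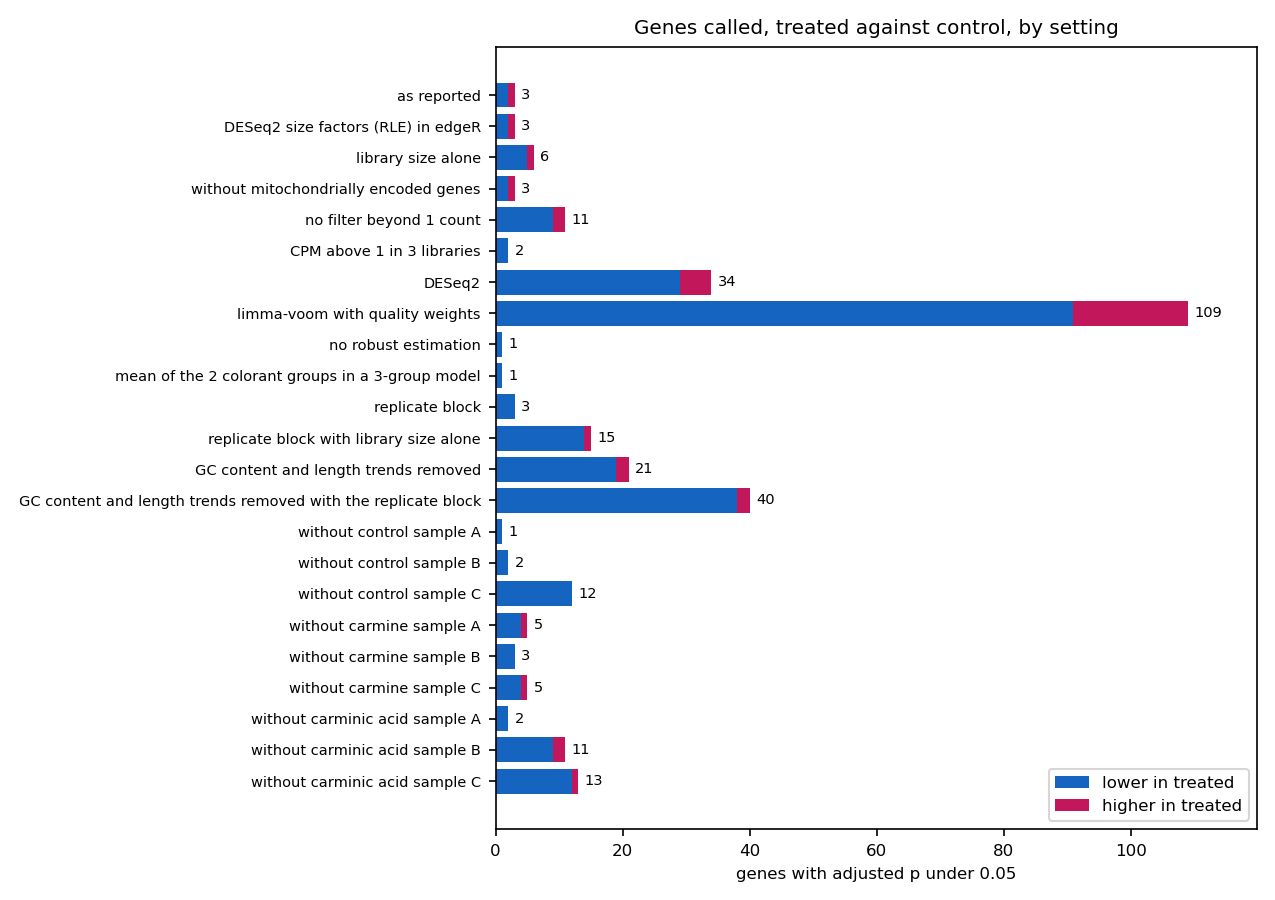
Number of genes with an adjusted p under 0.05 in the pooled comparison (horizontal axis), split into lower (blue) and higher (red), for the analysis as reported and for each alternative on the vertical axis. The count was 3 as reported, between 1 and 13 with 1 library left out, and 109 with limma-voom.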

How the data were processed

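RNA of 9 samples of Caco-2 cells was sequenced, and the authors deposited unnormalized counts for each gene and library, per the file headers. The submitters' processing notes name FastQC, HISAT, featureCounts and hg38 and give no versions. How strand and reads with several matches were handled, and which library kit was used, the sources used here do not give, so genes with close copies are uncertain. Of 28395 Gene IDs, 27745 had a symbol in RefSeq's table of GRCh38.p14.

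The test was edgeR 4.0.16 (R 4.3.3): filterByExpr by treated and control, TMM factors, and a robust quasi-likelihood test of 6 treated against 3 control libraries, two-sided, with Benjamini-Hochberg adjustment over all 16017 tested genes and a threshold of 0.05. A second model with 3 groups gave the values per colorant. The biological coefficient of variation was 11.3%. Intervals are 95% intervals of the fit, and errors of levels are SDs over libraries. The mitochondrial share was tested with an exact permutation test over libraries. The script was checked on simulated counts. Chi-square per degree of freedom between libraries of a group was at least 9.51, so none was counted as a copy of another. GC content and length trends were removed per library with splines of 4 degrees of freedom, using GENCODE transcripts for 12075 genes.

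Members, gene lists (32, with 859 different tested genes of 941) and tests were chosen with earlier results of these data known. The text names called genes whose average log2 CPM is 0 or more and whose groups do not overlap (the 5 smallest p-values per direction where fewer were called), each list's member of smallest p, and a set of metal, oxidant, xenobiotic, brush border and stress genes. Of the genes so picked, 1 is not reported here. TBC1D3D lies below that level and is given because it was called. Genes named outside this rule were chosen after their values were seen. Alternatives used DESeq2 1.42.0, limma-voom (limma 3.58.1), other scalings and filters, the replicate letter as a block and each library left out.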

Additional observations from a re-analysis of the deposited data

Results flagged for a closer look

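Among 65 values examined (64 named genes and the mitochondrial share), 4 had a single exposed library that stood apart from the other 5, and chance alone gives about 1 in 20. ARGLU1 was 50 CPM in carminic acid B, above the next exposed library at 46.6 CPM and still below every control. CDKN1A was 142 CPM in carmine C, where the next exposed library had 119 CPM. CTSH was 239 CPM in carmine C, where the next had 178 CPM. SLC30A1 was 56.6 CPM in carmine B, the lowest of the exposed libraries, and the next lowest had 64.7 CPM.

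CNIH1, which loads cargo into vesicles that leave the endoplasmic reticulum, was the only gene called between the colorants in the 3-group model (carmine minus carminic acid, log2 fold change 0.544, edgeR adjusted p = 0.0312). It had 65.1, 69.9 and 71.7 CPM in control, 89.7, 87.5 and 88.8 with carmine and 60.0, 58.1 and 64.2 with carminic acid. The carmine libraries were the highest and the carminic acid libraries the lowest of the 9. The value against control was 0.36 for carmine and -0.18 for carminic acid, so the pooled value of 0.12 hides opposite directions. The concentrations of the colorants differ.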

How the results depend on the processing

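TBC1D3D passed in all 22 alternatives, LUC7L3 in 17 and CYP1A1 in 13. Of 64 named genes, 57 kept their sign in every alternative, and of 32 list medians, 24 did. RLE factors, leaving out mitochondrially encoded genes and requiring an absolute log2 fold change of 0.5 gave the same counts as reported (3 called, 1 higher, 2 lower). The counts called, higher and lower were 6, 1 and 5 with library size alone, which moved the median of all genes to -0.0273; 11, 2 and 9 with no filter; 2, 0 and 2 with CPM above 1 in 3 libraries; 34, 5 and 29 with DESeq2; and 109, 18 and 91 with limma-voom. They were 1, 0 and 1 without robust estimation, for the mean of the colorant groups in a 3-group model, and at an adjusted p under 0.01. With the GC content and length trends removed they were 21, 2 and 19. The cause was not tested. Leaving out 1 library gave 1 to 13 genes called, 0 to 2 higher and 1 to 12 lower: 1 without control A, 2 without control B or carminic acid A, 5 without carmine A or C, 11 without carminic acid B, 12 without control C and 13 without carminic acid C. The difference in mitochondrial share ran from -1.08 to -0.794 percentage points over those alternatives.

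Samples share only a replicate letter. Correlations of same-letter deviations ran from -0.361 to 0.296, 2 of 9 were above 0.1, and 2 libraries correlated best with their own letter. The replicate block gave 3 genes called, 0 higher and 3 lower, 15, 1 and 14 with library size alone, and 40, 2 and 38 with the trends removed. With the block CYP1A1 had an edgeR adjusted p of 0.0645 and ATP8 one of 0.0155. Depth limited MT1X and MT2A, at 22 to 50 counts per library, and CYP1B1, with 18 counts in all.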

Other observations

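With the GC content and length trends removed, edgeR called 18 genes beyond the 3 reported, all but UGT2B7 lower in exposed cells, and none of them is called as reported. OGT, the enzyme that attaches O-GlcNAc to nuclear and cytosolic proteins, stood at 173 ± 12.8 CPM (SD, n = 6) against 221 ± 13.4 CPM (SD, n = 3), with no overlap. CCNL2, a cyclin that localises to nuclear speckles and takes part in splicing, stood at 85.4 ± 7.74 against 113 ± 9.62 CPM, with no overlap. SEC31B, a COPII coat protein, stood at 7.23 ± 0.866 against 10.96 ± 1.28 CPM, and SLC25A37, the iron importer mitoferrin-1, at 19.1 ± 1.204 against 24.4 ± 0.942 CPM, both with no overlap. HSF4, a heat shock transcription factor, stood at 6.54 ± 0.683 against 8.89 ± 0.767 CPM. The pseudogenes SDHAP1 and SDHAP4, which can share reads with SDHA, stood at 12.3 ± 1.26 against 16.6 ± 1.32 CPM and 14.4 ± 1.02 against 19.2 ± 1.53 CPM, while SDHA itself was higher in all 6 exposed libraries (274 ± 16.97 against 250 ± 6.14 CPM). DESeq2 also called OGT, CCNL2, SEC31B, SLC25A37, HSF4, SDHAP1 and SDHAP4 without removal of the trends, and 15 of its 34 genes were among the 21.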
